A study of Mus musculus with 6 samples.

Results

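Early B-lineage genes are the transcripts by which the first steps of B lymphopoiesis are recognised, and 9 of them were followed here in hematopoietic stem and progenitor cells of irradiated mice: Ebf1, Pax5, Vpreb1, Vpreb3, Igll1, Cd79a, Cd79b, Blnk and Cd22. They were taken by gene name from a table of 55487 genes, and each name matched 1 row. The libraries were made from LSKs (marrow cells that carry Sca-1 and c-Kit but no lineage marker, sorted after depletion of mature cells), a fraction that holds the hematopoietic stem cells and the multipotent progenitors. All mice were young adult males given a sublethal total body irradiation, and they differed in genotype: 3 libraries came from Tespa1+/+ mice, wild-type littermates per the labels, and 3 from Tespa1-/- mice that carry the B6.129S-Tespa1tm1Smoc allele in every cell, backcrossed to C57BL/6. No unirradiated library was analysed here. Whether a library stands for 1 mouse or for a pool is not given in the sources used here, so p-values measure the spread between these libraries, which may be technical.

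B lymphopoiesis starts from lymphoid-primed progenitors inside the LSK fraction. E proteins and Foxo1 open the program, Ebf1 specifies the lineage and Pax5 commits cells to it. Both factors then drive the parts of the pre-B cell receptor, which consists of the immunoglobulin mu chain, a surrogate light chain made of Vpreb1 and Igll1, and the signalling pair Cd79a and Cd79b. The adaptor Blnk passes the signal of that receptor on, and Cd22 dampens it in more mature B cells. B220, which marks B-lineage cells, was one of the antigens of the lineage cocktail, with CD3e, CD11b, Gr-1 and Ter-119.

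Promoter windows are shown for 4 members that make or serve the pre-B cell receptor, because 3 of them were lower in Tespa1-/- LSKs while Vpreb1 did not pass the test, and their start regions hold short motifs known from B-lineage genes. Each window is the 250 bases before the RefSeq transcript start on GRCm38.p6, read 5′ to 3′ on the strand of the gene, and capitals mark every match of the motifs searched. The windows lie at chr19:40994222-40994471 (minus strand, Blnk), chr10:75948050-75948299 (plus strand, Vpreb3), chr16:16863986-16864235 (minus strand, Igll1) and chr16:16869256-16869505 (minus strand, Vpreb1).
Blnk: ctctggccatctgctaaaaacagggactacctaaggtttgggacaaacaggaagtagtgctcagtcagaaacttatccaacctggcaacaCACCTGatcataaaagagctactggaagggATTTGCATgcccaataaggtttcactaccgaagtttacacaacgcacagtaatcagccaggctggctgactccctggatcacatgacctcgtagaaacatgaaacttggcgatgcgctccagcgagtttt
Vpreb3: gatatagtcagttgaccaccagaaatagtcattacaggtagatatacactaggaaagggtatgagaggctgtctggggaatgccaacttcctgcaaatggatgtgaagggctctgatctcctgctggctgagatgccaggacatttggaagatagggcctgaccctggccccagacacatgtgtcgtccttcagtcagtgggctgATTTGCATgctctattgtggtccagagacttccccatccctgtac
Igll1: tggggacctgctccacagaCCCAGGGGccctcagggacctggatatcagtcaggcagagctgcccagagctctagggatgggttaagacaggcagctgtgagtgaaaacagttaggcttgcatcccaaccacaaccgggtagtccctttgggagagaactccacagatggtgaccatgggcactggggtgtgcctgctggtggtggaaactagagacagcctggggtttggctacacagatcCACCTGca
Vpreb1: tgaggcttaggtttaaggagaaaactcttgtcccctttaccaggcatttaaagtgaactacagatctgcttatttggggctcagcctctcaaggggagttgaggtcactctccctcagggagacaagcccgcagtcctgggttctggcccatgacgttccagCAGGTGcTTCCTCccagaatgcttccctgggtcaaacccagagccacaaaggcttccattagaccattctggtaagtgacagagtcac
The motifs were searched on both strands in the windows of the 8 members that matched by symbol (9 windows, since Ebf1 has 2 starts). The octamer ATGCAAAT, which stands in the windows as its reverse complement, starts 130 bases before the start of Blnk and 45 bases before that of Vpreb3, and 1.6% of 32851 windows of all genes hold it. The E-box CAGGTG, a sequence that E proteins bind, lies in the windows of Blnk, Cd22, Cd79a, Igll1 and Vpreb1, against 17.2% of all windows. The pair CCCNNGGG, which resembles the Ebf1 motif, was present in Igll1 and Cd22 (11.8% of all windows), and GAGGAA, the core of sites for Spi1, in Cd79a, Vpreb1 and 1 window of Ebf1 (23.3% of all windows). The window of Pax5 and the other window of Ebf1 held none of the motifs, and a link between motifs and fold changes was not tested. No 2 of these matches overlap in the windows printed. A match is a description of the letters and not a measured binding site, and these libraries hold no binding data.

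The total count was 14344753 to 30576981 in the Tespa1+/+ libraries and 12856630 to 17684702 in the Tespa1-/- libraries, and each pair of libraries differed by more than counting noise. The targeted gene, Tespa1, had 626, 1033 and 533 counts in the Tespa1+/+ libraries and 261, 207 and 176 in the Tespa1-/- libraries, so transcript of the locus was lower but still counted. Values below are counts as deposited or CPM (counts divided by the library total, adjusted by its TMM factor), and fold changes are Tespa1-/- over Tespa1+/+. A gene was called when its adjusted p in edgeR's quasi-likelihood test was under 0.05 and its fold over 1.5. Over all 15332 genes tested, 2951 (19.2%) were called lower and 2148 (14%) were called higher, which became 3516 and 1491 when total counts replaced TMM scaling. Fold change also ran with gene length across genes: the median log2 value was 0.54 for the 1540 shortest genes and -0.56 for the 1532 longest, and the Spearman rho with union exon length was -0.47 over 15314 genes, which are not independent replicates. Values after a correction for that trend are therefore given beside the members.

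Of the 9 early B-lineage genes, 8 had enough counts to be tested. Of these, 6 were called lower in Tespa1-/- LSKs (Ebf1, Pax5, Vpreb3, Igll1, Cd79a and Blnk), against a background of 19.2%, and 0 were called higher, against 14%. The median log2 fold change of the 8 genes was -0.92, whereas that of all genes tested was -0.0003. The same 6 passed the cutoff of the study (a fold over 1.5 at an unadjusted p under 0.05), which 19.9% of all genes passed in that direction. These 6 genes also had every Tespa1-/- library below every Tespa1+/+ library (34.6% of all genes). Cd79b had every Tespa1-/- library above (34.5% of all genes), and Vpreb1 and Cd22 overlapped between the groups. The 9 genes were chosen as a group, so these counts describe the list and do not test it. In bulk libraries, fewer cells of a type and less RNA per cell cannot be told apart.

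**Figure D1:**
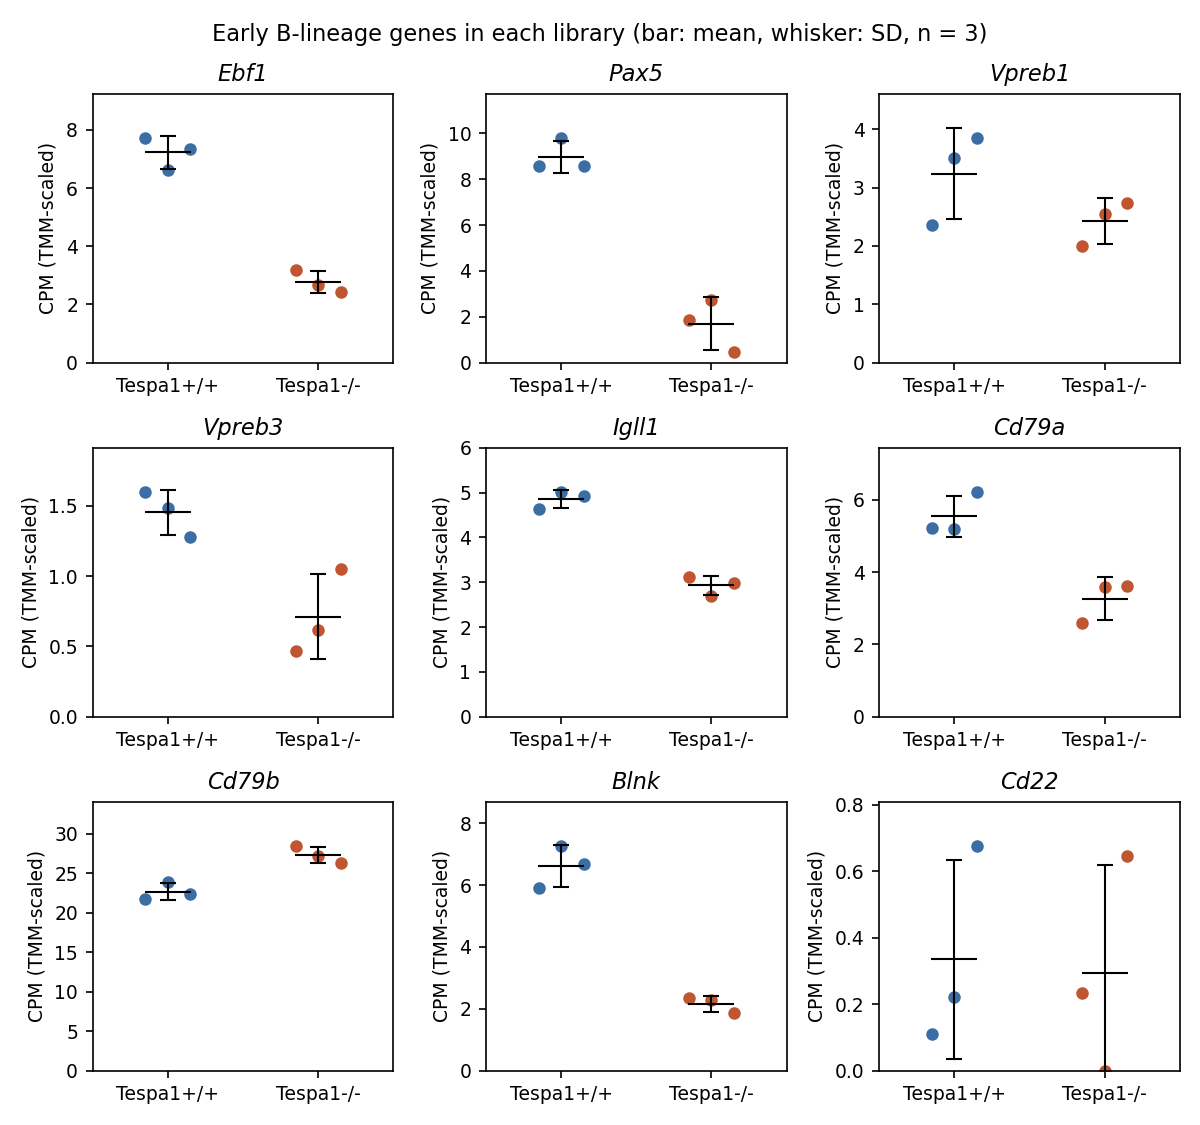
Level of each of the 9 early B-lineage genes (y axis, TMM-scaled CPM from 0, a different range in each panel) in 3 Tespa1+/+ and 3 Tespa1-/- libraries (x axis); points are libraries, the horizontal bar is the mean and the whisker the SD. The points of the groups are apart in 7 panels, with Tespa1-/- below in 6 of them and above for Cd79b, and they overlap for Vpreb1 and Cd22.

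Before any correction for gene length, Pax5, Blnk and Ebf1 had the largest falls. Ebf1 (ENSMUSG00000057098, GRCm38 chr11:44617317-45008091, plus strand), the factor that specifies the B lineage, had 140, 209 and 109 counts in the Tespa1+/+ libraries and 54, 39 and 30 in the Tespa1-/- libraries. As CPM these were 7.71, 6.62 and 7.35 against 3.17, 2.69 and 2.42, and the groups did not overlap. The mean fell from 7.23 ± 0.555 to 2.76 ± 0.381 CPM (SD, n = 3 each), a log2 fold change of -1.37 (± 0.14 SE, adjusted p in edgeR = 0.000107).

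Pax5 (ENSMUSG00000014030, chr4:44524757-44710487, minus strand), the commitment factor, showed the largest fall of the 8 members tested. Its counts were 156, 309 and 127 in Tespa1+/+ libraries and 32, 40 and 6 in Tespa1-/- libraries. The CPM values were 8.59, 9.79 and 8.57 against 1.88, 2.76 and 0.484, so all Tespa1-/- libraries were low and the third was the lowest. Its log2 fold change was -2.36 (± 0.38 SE, adjusted p in edgeR = 0.00124), from 8.98 ± 0.697 to 1.71 ± 1.15 CPM (SD, n = 3 each), and it was -1.96 without the third Tespa1-/- library. The 6 counts of that library have an exact Poisson 95% interval of 0.178 to 1.05 CPM, below those of the first (1.29 to 2.65 CPM) and second (1.97 to 3.75 CPM) Tespa1-/- libraries, where the interval covers counting error only. The exons of Pax5 overlap 2 loci on the other strand, Gm12462 with 0 counts in every library and 5730488B01Rik with 4, 7 and 0 counts in Tespa1+/+ and 0 counts in each Tespa1-/- library.

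Blnk (ENSMUSG00000061132, chr19:40928927-40994535, minus strand), the adaptor that links Syk to downstream enzymes and whose window holds the octamer, had 107, 229 and 99 counts in Tespa1+/+ libraries. It had 40, 33 and 23 counts in Tespa1-/- libraries. The CPM were 5.89, 7.25 and 6.68 against 2.35, 2.27 and 1.85, without overlap and with little spread within either group. The mean went from 6.61 ± 0.683 to 2.16 ± 0.266 CPM (SD, n = 3 each), a log2 fold change of -1.61 (± 0.14 SE, adjusted p in edgeR = 6.66e-05), the smallest adjusted p of the members.

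The surrogate light chain genes differed among themselves. Igll1 (ENSMUSG00000075370, chr16:16860671-16863985, minus strand), the constant-like chain, had 84, 158 and 73 counts in Tespa1+/+ libraries and 53, 39 and 37 in Tespa1-/- libraries, that is 4.63, 5.004 and 4.92 against 3.11, 2.69 and 2.98 CPM. The spread within each group was small (4.85 ± 0.1998 and 2.93 ± 0.218 CPM, SD, n = 3 each), and the log2 fold change of -0.73 (± 0.12 SE, adjusted p in edgeR = 0.00123) passed the test.

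Vpreb1 (ENSMUSG00000059305, chr16:16868403-16870843, minus strand), the variable-like partner of Igll1, lies beside it on the same strand. It had 43, 111 and 57 counts in Tespa1+/+ libraries and 34, 37 and 34 in Tespa1-/- libraries. The CPM were 2.37, 3.52 and 3.85 against 1.996, 2.55 and 2.74, and the first Tespa1+/+ library lay among the Tespa1-/- libraries. Its log2 fold change of -0.43 (± 0.22 SE, adjusted p in edgeR = 0.132) did not pass the test, and it was -0.60 (adjusted p = 0.0293) when the first Tespa1+/+ library was left out. Reads can be shared with the near-identical gene Vpreb2, which had 26, 37 and 13 counts against 19, 13 and 9, and 108 exonic bases are shared with Top3b on the other strand, which had 1108 to 2961 counts. Both make the value of Vpreb1 uncertain, since the use of strand in counting is not given in the sources used here.

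Vpreb3 (ENSMUSG00000000903, chr10:75943057-75949657, plus strand), a related chain that associates with the mu chain inside pre-B cells and whose window also holds the octamer, was the least counted of the 8 members tested. It had 29, 47 and 19 counts in Tespa1+/+ libraries and 8, 9 and 13 in Tespa1-/- libraries. The CPM were 1.60, 1.49 and 1.28 against 0.470, 0.620 and 1.05, with the third Tespa1-/- library nearest to the Tespa1+/+ range. Its log2 fold change was -1.08 (± 0.30 SE, adjusted p in edgeR = 0.0154), and the call was lost without the first (-0.82, adjusted p = 0.0576) or the second (-0.998, adjusted p = 0.0549) Tespa1-/- library and in DESeq2 (adjusted p = 0.0885).

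The signalling pair moved apart. Cd79a (ENSMUSG00000003379, chr7:24897381-24902197, plus strand), the Ig-alpha chain, had 95, 164 and 92 counts in Tespa1+/+ libraries and 44, 52 and 45 in Tespa1-/- libraries. The CPM of 5.23, 5.19 and 6.21 lay above those of 2.58, 3.58 and 3.63 without overlap. The mean fell from 5.54 ± 0.574 to 3.27 ± 0.591 CPM (SD, n = 3 each), a log2 fold change of -0.77 (± 0.16 SE, adjusted p in edgeR = 0.00494).

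Cd79b (ENSMUSG00000040592, chr11:106311341-106314762, minus strand), the Ig-beta chain, had 396, 756 and 331 counts in the wild-type libraries and 484, 395 and 327 in the Tespa1-/- ones. After scaling these were 21.8, 23.9 and 22.3 against 28.4, 27.2 and 26.4 CPM, so every Tespa1-/- library was the higher one. Its log2 fold change of 0.27 (± 0.07 SE, adjusted p in edgeR = 0.00919) passed the test but not the fold of 1.5. The rise no longer passed with total counts in place of TMM (0.17, adjusted p = 0.0573). It also did not pass with the length correction by FPKM length (0.17, adjusted p = 0.0513) or by union exon length (0.07, adjusted p = 0.42). A fall of the size seen in Cd79a was found under none of these settings.

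Cd22 (ENSMUSG00000030577, chr7:30865402-30880342, minus strand), an inhibitory co-receptor of B cells past the early stages, had 2, 7 and 10 counts in Tespa1+/+ libraries and 4, 0 and 8 in Tespa1-/- libraries. It did not pass the filter on low counts, its groups overlapped, and a difference was not detectable at this depth. The 0 allows up to 3 counts, or 0.207 CPM in that library, and its exact Poisson 95% interval reaches 0.254 CPM, for counting error only.

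**Figure D2:**
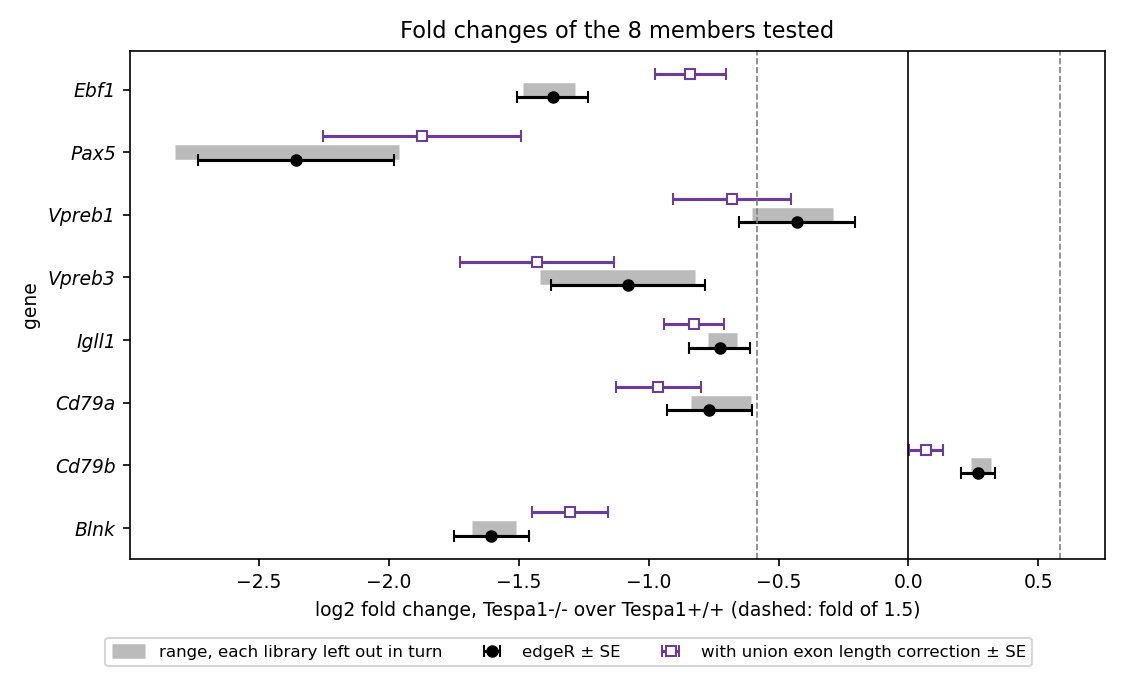
Log2 fold change, Tespa1-/- over Tespa1+/+ (x axis), of the 8 members tested (y axis); circles are the edgeR values and squares those with the union exon length correction, each ± SE, grey bars span the values with each library left out in turn, and dashed lines mark a fold of 1.5. The correction moves Ebf1 from -1.37 to -0.84 and Vpreb3 from -1.08 to -1.43, and the circle and square of Cd79b lie to the right of 0.

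Gene length split the members into 2 sets. Ebf1, Pax5 and Blnk have 9756, 8853 and 5991 bases of union exon, while the other 5 members tested have 859 to 2164. All tested genes as long as the first set (5000 to 10000 bases) had a median log2 fold change of -0.28, and those as short as the second (800 to 2200 bases) one of 0.34. With the union exon length correction the long members stayed lower, at -0.84 for Ebf1, -1.87 for Pax5 and -1.30 for Blnk (edgeR adjusted p = 0.00145, 0.0044 and 0.000246). Igll1, Cd79a and Vpreb3 were then further below Tespa1+/+, at -0.82, -0.96 and -1.43 (edgeR adjusted p = 0.000753, 0.00195 and 0.00489). Vpreb1 was then called lower too, at -0.68 (edgeR adjusted p = 0.0358), so that 7 members were called lower. The order of the falls thus depended on the correction, whereas the 6 calls made without it were kept. The part of length in each fall was not tested further.

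Levels between genes were compared per length, with the deposited FPKM values. In Tespa1+/+ LSKs the order was Cd79b (11.1 ± 0.535 FPKM, SD, n = 3), Cd79a (3.93 ± 0.406), Igll1 (1.83 ± 0.0730), Vpreb1 (1.52 ± 0.362), Vpreb3 (1.11 ± 0.123), Blnk (1.09 ± 0.112), Pax5 (0.946 ± 0.0725), Ebf1 (0.637 ± 0.0497) and Cd22 (0.0325 ± 0.0289). The libraries of neighbouring genes overlapped from Igll1 through Pax5, and Cd79b, Cd79a, Ebf1 and Cd22 stood apart from their neighbours. In Tespa1-/- LSKs Cd79b (12.5 FPKM) and Cd79a (2.16 FPKM) kept the top places, while Vpreb1 (1.06 FPKM) came before Igll1 (1.03 FPKM) and Ebf1 (0.227 FPKM) before Pax5 (0.168 FPKM), but the libraries of both of these pairs overlapped. The length behind the deposited FPKM differed from the union exon length, and with the latter Vpreb1 came before Igll1 in Tespa1+/+ LSKs too.

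Ratios within a library do not depend on its scaling. The FPKM ratio of Cd79b to Cd79a was 2.89, 3.19 and 2.49 in Tespa1+/+ libraries and 7.61, 5.26 and 5.03 in Tespa1-/- libraries, and it was higher in every Tespa1-/- library. The length implied by count and FPKM was 2105 bases for Cd79b and 1457 for Cd79a, while their union exon lengths are 1431 and 1457 bases. The size of this ratio therefore depends on the length used, but its order between libraries does not. The ratio of Pax5 to Ebf1 was 1.33, 1.77 and 1.39 against 0.708, 1.23 and 0.239, again without overlap. The ratio of Vpreb1 to Igll1 was 0.637, 0.874 and 0.971 against 0.798, 1.18 and 1.14, and its groups overlapped. The differences between these ratios were not tested. Cd79b alone made up 36.1% to 38.0% of the summed CPM of the 9 members in Tespa1+/+ and 61.3% to 64.3% in Tespa1-/- libraries. Without Cd79b the sum was 36.1, 39.1 and 39.5 CPM in Tespa1+/+ libraries and 15.8, 17.2 and 15.8 CPM in Tespa1-/- libraries.

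**Figure D3:**
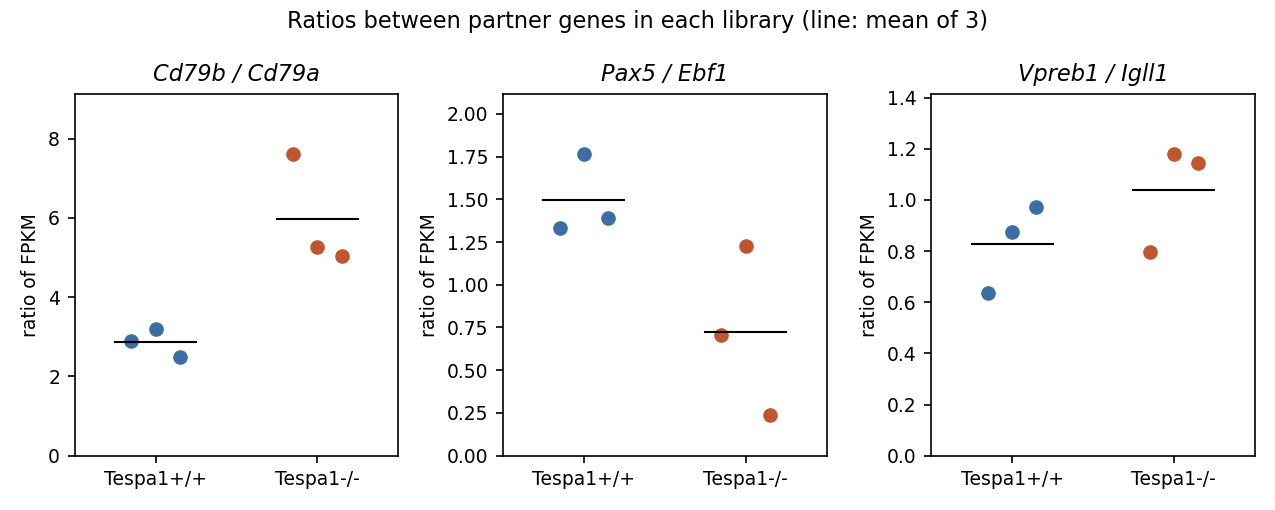
Ratio of FPKM (y axis, from 0) between partner genes in each of 3 Tespa1+/+ and 3 Tespa1-/- libraries (x axis); points are libraries and lines the means. Cd79b over Cd79a is 2.49 to 3.19 in Tespa1+/+ and 5.03 to 7.61 in Tespa1-/-. Pax5 over Ebf1 is lower in every Tespa1-/- library, where it rests on 6 to 40 counts of Pax5, and Vpreb1 over Igll1 overlaps.

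The genes whose pattern over the 6 libraries was nearest to that of Ebf1, by Euclidean distance between mean-centred log2 CPM among 10819 genes, were Prkcq (0.136), Atp10d (0.141) and Iqsec2 (0.193), where the median gene was at 1.78. Nearest to Cd79b, the member with the highest CPM, were Mgme1 (0.0516), Cstf3 (0.0609) and Mpi (0.0650), where the median gene was at 0.562. None of these 6 genes is in the lists used here.

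The other genes of the pathway were read from 7 lists with 104 genes beside the members, of which 96 were tested. In Tespa1-/- LSKs 37 of them were called lower and 5 higher, with a median log2 fold change of -0.40, beside the background of 19.2% lower and 14% higher.

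Among 20 further transcription factors of B-lineage entry, 9 were called lower, 1 was called higher and 10 were not called (median -0.54 on the log2 scale). With either length correction, 6 were called lower and 2 higher. Bach2, a repressor that favours lymphoid over myeloid fate, fell from 11.8 ± 0.590 to 0.635 ± 0.203 CPM (SD, n = 3 each). Ikzf1, which encodes the lymphoid regulator Ikaros, fell from 165 ± 5.93 to 61.1 ± 8.21 CPM, and Irf4, which acts at the pre-B stage, from 4.33 ± 0.371 to 1.91 ± 0.211 CPM. Their edgeR log2 fold changes were -4.24, -1.44 and -1.18 (adjusted p = 2.95e-06, 1.21e-05 and 0.000311). Irf8, called lower at -0.86, had libraries that spread widely (233 ± 56.2 and 129 ± 54.3 CPM), and its call was lost in DESeq2, with both length corrections (-0.59 and -0.48) and without the first or second library of either genotype (-0.77 to -0.69). Foxo1 and Tcf3 act upstream of Ebf1. Foxo1 was called lower at -0.68 (± 0.13 SE, adjusted p in edgeR = 0.00249), a call lost with the union exon length correction (-0.20), whereas Tcf3, which encodes the E2A proteins, had -0.47 (± 0.05 SE, adjusted p in edgeR = 0.0001) and did not reach the fold of 1.5. Spi1, which encodes the PU.1 factor that at high level favours myeloid fate, was the 1 factor called higher with TMM scaling and no length correction, from 168 ± 7.59 to 268 ± 5.86 CPM (log2 fold change 0.67, edgeR adjusted p = 1.03e-05). With total counts in place of TMM and in each limma-trend fit on FPKM, 0 factors of this list were called higher, while DESeq2 gave 1.

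Of 8 factors that hold back E proteins or the B fate, 2 were called lower and 0 higher, with a median log2 fold change of 0.14. Both called genes serve the T lineage: Notch1 fell from 260 ± 5.56 to 77.5 ± 2.69 CPM and Gata3 from 5.01 ± 0.302 to 1.30 ± 0.0103 CPM.

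The lymphoid progenitor list was lower over most of its length, with 9 of 13 genes called lower, 0 called higher and a median of -1.41 on the log2 scale. Rag1, a recombinase subunit, fell from 8.49 ± 0.657 to 1.05 ± 0.425 CPM (SD, n = 3 each), which is -2.97 on the log2 scale (edgeR adjusted p = 3.33e-05). Dntt, the terminal transferase of lymphoid precursors, fell from 151 ± 3.62 to 31.8 ± 1.43 CPM (-2.25, edgeR adjusted p = 3.29e-07). Il7r, the receptor subunit for the main cytokine of mouse B lymphopoiesis, fell from 4.29 ± 0.0377 to 1.245 ± 0.296 CPM (-1.75), and Flt3, the receptor that marks lymphoid-primed progenitors, from 226 ± 2.75 to 112 ± 0.708 CPM (-1.01). The summed level of the list was 1496 to 1525 CPM in Tespa1+/+ and 735 to 759 CPM in Tespa1-/- libraries. That sum includes Cd93, with a mean of 497 CPM in Tespa1+/+ and 153 CPM in Tespa1-/- libraries, beside which Rag1 and Il7r are small. In the list of V(D)J recombination, 5 of 13 genes were called lower (3 with the union exon length correction) and the median was 0.02. Rag1, Rag2 and Dntt belong to both lists, Prkdc, a kinase of end joining, fell from 91.1 ± 4.92 to 43.7 ± 0.570 CPM, and 8 genes were not called.

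Downstream of the pre-B cell receptor, 6 of 22 genes were called lower and 0 higher, with a median log2 fold change of -0.31. Fyn, a Src-family kinase, fell from 42.6 ± 1.35 to 20.02 ± 2.16 CPM (SD, n = 3 each). Syk, the kinase upstream of Blnk, was far more abundant, at 231 ± 4.82 and 177 ± 1.67 CPM; its log2 fold change of -0.39 was below the fold of 1.5 and turned to 0.13 with the union exon length correction.

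Of 20 surface genes of B cells from the pre-B stage on, 13 were tested, 5 were called lower and 0 higher; their median was -0.17. Cd180 fell from 20.8 ± 1.47 to 7.39 ± 0.125 CPM, Ciita, the master regulator of MHC class II, from 6.57 ± 2.88 to 2.18 ± 0.674 CPM, and Tnfrsf13c, the BAFF receptor, from 2.91 ± 0.602 to 1.12 ± 0.310 CPM. At the low end of the list, Cr2 and Fcer2a had 0 counts in every library and Ms4a1 and Fcmr had at most 3, whereas Tnfrsf13b, another receptor of mature B cells, had 779 to 1792 counts. The summed level of this list was 748 to 761 CPM in Tespa1+/+ and 804 to 828 CPM in Tespa1-/- libraries. Cd37 and Cd24a, which many blood cells express, had log2 fold changes of 0.22 and 0.29, near that of Cd79b, whereas Cd74 and Ly86 had -0.14 and 0.02. These genes were picked after their values were seen, and a link to the value of Cd79b was not tested.

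The immunoglobulin and plasma cell genes split, with 5 of 11 tested called lower and 4 called higher. Ighm, the constant gene of the mu heavy chain that pairs with Vpreb1 and Igll1, fell from 250 ± 5.92 to 131 ± 5.13 CPM (SD, n = 3 each), which is -0.93 on the log2 scale (edgeR adjusted p = 2.52e-06). Counts of a constant gene do not tell whether the chain was rearranged. Igkc, the kappa light chain, rose from 111 ± 0.350 to 248 ± 5.48 CPM (1.16, edgeR adjusted p = 8.23e-07), and Jchain, which joins secreted polymers, from 40.3 ± 13.4 to 90.7 ± 2.74 CPM (1.18, edgeR adjusted p = 0.00169). Of the lambda chains, Iglc1 rose (0.81) and Iglc2 fell (-1.19). Sdc1, a plasma cell surface marker, fell from 14.0 ± 0.352 to 7.52 ± 0.637 CPM.

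**Figure D4:**
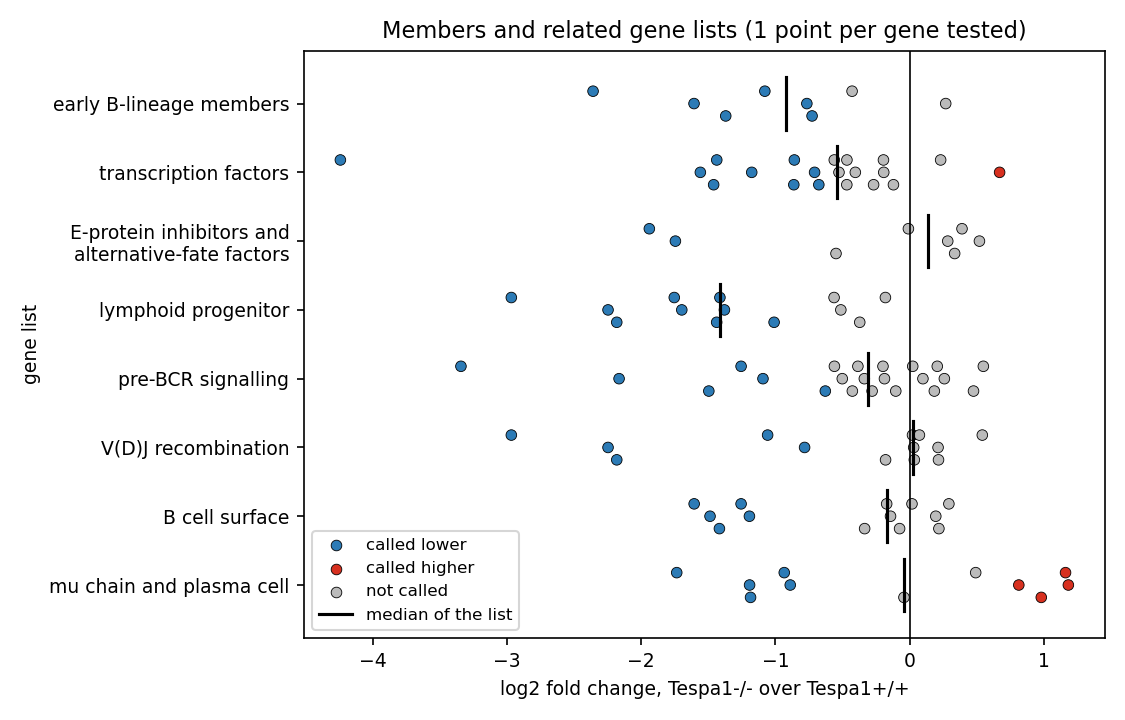
Log2 fold change, Tespa1-/- over Tespa1+/+ (x axis), of each gene tested in the member list and in 7 related lists (y axis); points are genes, coloured by call in edgeR, and vertical lines are list medians. Of the 7 related lists, the lymphoid progenitor list has the lowest median (-1.41), and the mu chain and plasma cell list holds 4 of the 5 related genes called higher.

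Markers of the sort and of other cells were counted in the same way, beside the background of 19.2% lower and 14% higher. Of 10 genes of the sort and of stem cells, 8 were called lower and 0 higher, with a summed level of 1056 to 1083 CPM in Tespa1+/+ and 588 to 611 CPM in Tespa1-/- libraries. Kit, used in the gate, went from 333 ± 9.79 to 170 ± 6.13 CPM (log2 fold change -0.97), and Ly6a, which encodes Sca-1, had -0.32 (edgeR adjusted p = 0.109). Of 12 neutrophil and granule genes, 0 were called lower and 11 higher, with a summed level of 10600 to 11350 CPM against 17600 to 18450 CPM, and S100a9 rose from 0.905 ± 0.258 to 115 ± 4.25 CPM. Of the 12 T cell markers, 7 were tested and 4 called lower (40.8 to 43.9 against 32.0 to 34.1 CPM summed). Cd3e had 8, 7 and 4 counts in Tespa1+/+ and 0 in each Tespa1-/- library. Of the 10 plasmacytoid dendritic markers, 7 were tested, 3 called lower and 1 higher (552 to 666 against 418 to 522 CPM summed, with Klk1 at 0 in every library). Of the 10 macrophage markers, 8 were tested, 2 were called lower and 1 higher (399 to 422 against 376 to 415 CPM, which overlap), and of the 10 erythroid markers 8 were tested, 2 were called lower and 5 higher (219 to 242 against 384 to 412 CPM). The part of these cell markers in the values of the early B-lineage genes was not tested.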

How the data were processed

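RNA of sorted LSKs was made into stranded poly-A paired-end libraries and sequenced on a NovaSeq instrument, with 3 Tespa1+/+ and 3 Tespa1-/- libraries grouped by their titles. The authors deposited 1 table with a raw count and an FPKM value per gene and library. The submitters' processing notes name CASAVA 1.8, HISAT2, StringTie, edgeR and GRCm38, without their roles. The authors' FPKM values scale the count by library total and by 1 length per gene, and were used for levels between genes and in alternatives. Positions were taken from the table, and 54784 of 55487 genes had identical coordinates in GENCODE M21.

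Counts were filtered with filterByExpr, scaled by TMM and tested with edgeR 4.0.16 in R 4.3.3 (quasi-likelihood, Tespa1-/- against Tespa1+/+, no covariates), with Benjamini-Hochberg adjustment over 15332 genes. Alternatives used limma 3.58.1 and DESeq2 1.42.0, other scalings and filters, loess corrections (span 0.5) for gene length, the replicate number as a block and leaving out each library. On simulated counts of 15242 genes edgeR recovered 98% of 200 changed genes with 1 false call. Recovery was not tested at the share of genes called in these libraries (2951 lower and 2148 higher of 15332). It was also not tested separately for genes with few counts or by gene length.

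The members and lists were chosen with earlier results of these data known. Named were the members, up to 3 called genes per list and direction with a mean count of at least 30, a fixed set of pathway genes, and the 3 genes nearest to Ebf1 and to the most abundant member. Other genes were named after their values were seen: Vpreb2, Top3b and the loci overlapping Pax5 for shared reads, Cd37, Cd24a, Cd74, Ly86, Cd93 and Tnfrsf13b for their level, and genes at or near 0. Of the genes this rule names, 2 are not reported here. Total counts were 12856630 to 30576981 per library.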

Additional observations from a re-analysis of the deposited data

How the results depend on the processing

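Of the 8 members tested, Ebf1, Pax5, Igll1, Cd79a and Blnk kept their direction and an adjusted p under 0.05 in each alternative that gave them a value, but Ebf1 (-0.42, without a filter) and Igll1 (-0.48), like Vpreb3 (-0.49, without a filter), missed the fold of 1.5 with limma-trend on log2(FPKM + 1), and Vpreb1, Vpreb3 and Cd79b changed sides of the threshold as stated with their values. The main count of 6 members called lower became 2 with limma-trend on log2(FPKM + 0.1), 1 on log2(FPKM + 1) and 3 on log2(FPKM + 1) without a filter, and the count at the cutoff of the study became 2, 1 and 3 likewise; the filtered limma fits tested 4 members, without Ebf1, Pax5, Vpreb3 and Blnk, and a pseudocount of 1 shrinks changes of genes at these levels. Among the related lists, 37 genes called lower became 22 and 20 with log2(FPKM + 1) without and with the filter, and 5 called higher became 3 in each limma fit. These counts became 29 lower and 6 higher with the correction by FPKM length, and 32 and 6 with that by union exon length. Total counts gave 43 lower and 4 higher. The lymphoid progenitor list had 6 genes called lower with the FPKM length and 9 with the union exon length. With each library left out in turn, 5 to 7 members were called lower (6 to 7 at the cutoff of the study), 0 were called higher, and 32 to 37 related genes were called lower and 4 to 6 higher. The log2 fold change of Syk turned from -0.39 to 0.0748 and 0.1265 with the length corrections by FPKM length and union exon length. Replicate numbers did not pair the libraries (correlations 0.0459, 0.0107 and 0.0595), and with the replicate block 6 members and 36 related genes were called lower. Of 46 other named genes, 41 neither reversed nor crossed an adjusted p of 0.05 in up to 17 settings (the fold was not part of this tally), and Irf8, Cox6a2, Foxo1, Syk and Ly6a did not; Irf8 also lost its call with the replicate block (-0.92). Requiring 10 counts in every library removed Pax5, Vpreb3 and Cd22. Depth limits Vpreb3, with 8 to 47 counts, and Cd22, with 0 to 10, and nothing here measures protein or cell numbers.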
